A study of Mus musculus with 9 samples.

Results

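Embryonic stem cells without RING1B were compared with the wild-type cells they came from on 6 of the 9 arrays of the series, 3 of the parental line (WT) and 3 of the knockout (KO), taken from the sample titles. WT was E14Tg2a, a male mouse embryonic stem cell (mESC) line of strain 129P2/OlaHsd. KO was an E14Tg2a-derived Ring1B -/- line in which both alleles of Rnf2, the gene for RING1B, lack exon 3. The other 3 arrays came from cells with a catalytically dead RING1B (Ring1B I53A/I53A) and are not compared here. They entered the normalisation, the choice of the brightest probe of each gene and the estimate of spread. All cells were cultured alike, in GMEM with serum and LIF, and no further treatment was labelled. KO was made by gene targeting with a drug resistance cassette and removal of the exon by Cre, and no second independently derived KO line is described for the arrays, so the mutation and the history of the line cannot be told apart. The 3 arrays per group are called biological replicates, but nothing says that they came from separate cultures, and each p-value therefore measures the spread between these arrays, which may be technical.

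RING1B is the E3 ligase and a structural core of Polycomb repressive complex 1 (PRC1), which binds CpG-rich promoters, attaches ubiquitin to histone H2A and compacts chromatin. In mESCs, Polycomb complexes hold developmental regulators such as the Hox genes at low expression. A variant form of PRC1, recruited through the DNA-binding proteins E2F6, MGA and L3MBTL2, is known for keeping germline genes silent outside the gonads. The comparison asks which transcripts differ in level when this protein is missing.

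Levels are log2 processed fluorescence after quantile normalisation, so that 1 unit is a doubling, and each gene is represented by its brightest probe. A gene was called when limma's Benjamini-Hochberg adjusted p over all 30170 probes was under 0.05 and the change was over 2-fold. A signal not well above background gives only a bound on a level, and a gene that was dim on all 3 arrays of a group is given as "at least" a fold, with the dim signals set to the lowest well-measured signal of their array. Arrays correlated at 0.966 to 0.972 within WT, 0.958 to 0.960 within KO and 0.939 to 0.951 between the groups. Slide 1 held WT 1, WT 2, KO 2 and KO 3 and slide 2 held WT 3 and KO 1, and WT and KO arrays lay in different columns of the slides, so that column and group cannot be told apart. The share of tested probes with a signal well over background ranged from 45.4% to 56.2% on these 6 arrays. Fewer cells with a transcript and less transcript per cell cannot be told apart in such bulk samples.

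Rnf2 itself had 1 probe. Its signal was 8.32, 8.27 and 8.47 on the WT arrays and 7.35, 7.92 and 8.08 on the KO arrays. The KO arrays were all below the WT arrays, but the difference did not pass the test (log2FC -0.57, SE 0.26, limma adjusted p 0.288). The null allele is described as still giving a transcript, and the position of the probe in the transcript was not established, so the level checks no label. The paralogue Ring1, which encodes RING1A, spread widely in both groups (log2FC -0.08, adjusted p 0.97) and was well above background on 2 arrays of each group. Its sign turned without WT 3 (0.25) and without KO 3 (0.49). The cells carried mESC markers in both groups, though some markers moved. Pou5f1 lay between 13.34 and 13.63 in WT and between 12.97 and 13.46 in KO (log2FC -0.21, adjusted p 0.684). Dppa5a lay between 13.09 and 13.31 in WT and between 13.07 and 13.16 in KO. Tdgf1 (log2FC 0.95, limma adjusted p 0.114), Klf4 (0.67, adjusted p 0.158) and Esrrb (-0.92, adjusted p 0.238) moved further but were not called. Utf1 (0.11), Sall4 (-0.18) and Lin28a (-0.47) were not called either. Sox2, which was called lower, and Nanog are given with the pluripotency genes.

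More genes were called higher than lower in KO. By probe, 824 of 30170 were called higher in KO (2.73%) and 335 lower (1.11%). Of 21679 genes, 635 were called higher in KO (2.93%) and 253 lower (1.17%). Chromosome 11 held 128 of the higher and 9 of the lower genes, or 7.49% and 0.527% of its 1708 genes, and the median log2FC of its genes was 0.22 against -0.04 for all others. Since a gene on that chromosome carries this shift, counts of gene lists are also given off chromosome 11 where it holds called members. On the other chromosomes 507 of 19971 genes rose (2.54%) and 244 fell (1.22%), while by unadjusted p (under 0.05) 1785 were higher and 1733 lower. Genes that rose had a median WT level of 5.12 and those that fell 8.03. A gene near background in WT can hardly be called lower, so this contrast is in part set by the calling. Of the 507, 218 were among the 9225 genes measured on all 6 arrays (2.36%), with a median change of 1.44 on the log2 scale, and 137 went from dim on all WT arrays to well above background on all KO arrays. Of the 244, 169 were among these (1.83%), with a median change of 1.29 in size, and 14 went from measured on every WT array to dim on every KO array. Among the genes measured on all 6 arrays, 46 of those that rose and 12 of those that fell did so by over 4-fold, while by unadjusted p (under 0.05) more of the 9225 were lower (1180) than higher (817). Without any one of the 9 arrays, 245 of the 507 and 82 of the 244 kept their call in every fit. WT and KO arrays did not overlap for any of the 507 or the 244, so a gap between the arrays of a called gene adds nothing to its call. In the normexp fit, which adds an offset to dim signals, 172 probes off chromosome 11 were called higher and 90 lower, against 651 (2.35%) and 322 (1.16%) as reported here.

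**Figure D1:**
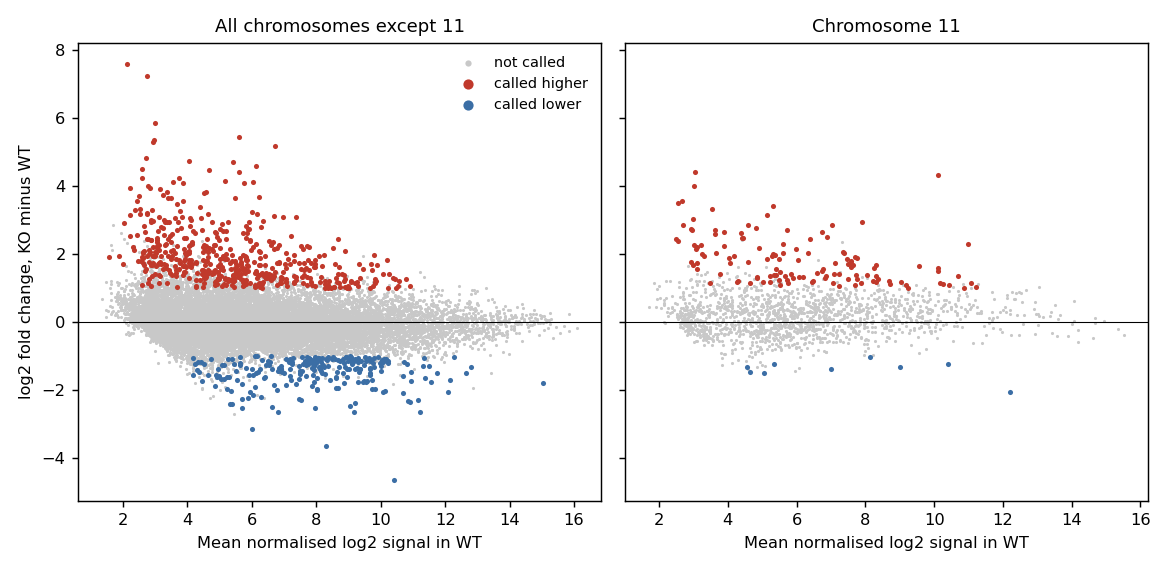
Change of each gene in KO (y axis, log2 fold change) against its mean normalised log2 signal in WT (x axis), with 1 point per gene, for all chromosomes except 11 on the left and chromosome 11 on the right. Called genes are coloured, with a median WT signal off chromosome 11 of 5.12 for those that rose and 8.03 for those that fell. A gene near background in WT can hardly be called lower.

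The germline list held the most genes that rose by number, though not by share. Of 80 measured, 28 rose and 1 fell, 24 and 1 of them among the 74 off chromosome 11. The median log2FC of the list was 0.76, against -0.02 for all genes. Every list used here was chosen with earlier results of these data known. Counts and medians of a list beside all genes therefore describe its members and are no independent test. A larger share rose of the 2-cell stage list (11 of 23) and of the Rhox genes (4 of 10), both described further on. The median was 0.71, 0.89 and 0.71 when each KO array was set against the WT mean, and 0.78 within slide 1 and 0.61 within slide 2. With 75th percentile scaling it was 0.78 and with normexp 0.31. In every fit without 1 array, 22 of the 28 kept their call. The list holds genes of synapsis, of the piRNA pathway and of germ cell identity, which were not counted as lists of their own, and the genes given next were picked from the 28.

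Some of the 28 act in meiotic chromosome structure. Syce1, which encodes a central element protein of the synaptonemal complex, stood at 6.32, 6.15 and 5.68 in WT and at 10.60, 9.91 and 9.95 in KO (log2FC 4.11, SE 0.35, limma adjusted p 0.000167). Tex12, another central element gene, was dim in WT at 3.40, 3.94 and 3.50 and measured 6.25, 6.96 and 6.78 in KO, a rise of at least 7.35-fold (adjusted p 0.000173). The groups lay far apart for both genes, with no KO array near a WT array. Smc1b, the meiotic cohesin subunit, read 4.96, 4.97 and 5.05 in WT, where 1 array was above background, and 7.31, 7.92 and 7.98 in KO (log2FC 2.74, adjusted p 0.000299). Sycp3, which encodes an axial element protein of the same complex, moved the other way, from 7.62, 7.53 and 7.87 to 5.97, 6.39 and 5.95 (log2FC -1.57, adjusted p 0.00365). It was the one germline member that fell and was picked with its value known. Stra8, a gatekeeper of meiotic entry, was dim in WT (3.92, 4.25 and 4.94) and reached 8.21, 7.57 and 7.53 in KO, a rise of at least 10.5-fold (adjusted p 0.00137).

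Others of the 28 belong to the piRNA pathway, which silences transposons in germ cells, or mark germ cells. Fkbp6, a co-chaperone gene of that pathway, had 5.62, 5.81 and 5.86 in WT and 9.97, 9.89 and 9.74 in KO (log2FC 4.10, SE 0.24, limma adjusted p 2.09e-05). Mael, the gene for maelstrom, had 6.48, 6.93 and 6.67 in WT and 9.95, 9.97 and 9.50 in KO (log2FC 3.11, adjusted p 6.9e-05). Ddx4, which encodes the germ cell RNA helicase also called VASA, was dim in WT (3.96, 3.89 and 4.67) and stood at 7.14, 6.66 and 6.76 in KO, a rise of at least 6.41-fold (adjusted p 0.00285). For each of the 3 genes the lowest KO array was well above the highest WT array. Mov10l1, the piRNA pathway helicase (at least 4.48-fold, adjusted p 0.00441), and Asz1 (at least 3.4-fold, adjusted p 0.000499) rose from dim WT signals, the latter well above background on 2 of 3 KO arrays. Dazl, a germ cell RNA-binding protein gene (at least 4.53-fold, adjusted p 0.00123), and Stk31, a germ cell kinase gene (at least 5.16-fold, adjusted p 0.0028), rose in the same way.

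The testis alpha-tubulin genes Tuba3a and Tuba3b stood at the top of the list. Tuba3a read 5.87, 6.55 and 5.96 in WT and 9.98, 11.05 and 11.13 in KO (log2FC 4.59, SE 0.39, limma adjusted p 0.000163). Tuba3b was dim in WT at 2.83, 4.65 and 3.76 and read 8.16, 7.79 and 8.04 in KO, a rise of at least 16.4-fold (adjusted p 0.000272). The genes encode near-identical proteins, and a probe for one may also bind the transcript of the other. The remaining tubulins did not share the change. Of 17 tubulin genes 3 rose and none fell, the third being Tubg1 on chromosome 11 (10.30, 10.49 and 9.95 against 11.09, 11.40 and 11.64, adjusted p 0.0356), and the median of the 17 was -0.05, or 0.06 with 75th percentile scaling. Tubg1 was no longer called without KO 2, KO 3 or any WT array (adjusted p up to 0.134).

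The promoters of these germline genes are shown because 2 short motifs recur in them. RefSeq promoters (GRCm38.p6, 250 bases before to 50 after the start site) matched 21 of the 24 germline genes that rose off chromosome 11, and the letters were searched on both strands. CACGTG, the E-box core that MGA and its partner MAX bind, was present in 7 of 21 (33.3%) against 7.15% of the 32851 promoters in the table. TTCCCGC or its reverse complement GCGGGAA, the core of the E2F6 site, was present in 7 of 21 (33.3%) against 4.60%. At least 1 of the motifs was present in 12 (57.1%) against 11.3%, and both in 2. The promoters of the raised germline genes also held more CG pairs, with a median of 17 against 7 in the table, and the shares were not compared with promoters of equal CG content. The shares were not compared with those of germline genes that did not rise, so they do not bear on the rise itself. A planned comparison over all called genes was not made. Off chromosome 11, promoters matched only 71.5% of the genes with a symbol that rose and 69.2% of those that fell. The plan also named 2 further motifs, which are not reported here. A match describes letters and not a bound site. The stretches below run 5' to 3' on the strand of the gene, with the matched motif in capitals and up to 25 bases on each side. All lie upstream of the start site.
Tuba3a, chr6:125286170-125286226, minus strand: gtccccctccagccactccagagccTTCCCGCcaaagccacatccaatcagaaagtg
Tuba3b, chr6:145615831-145615887, plus strand: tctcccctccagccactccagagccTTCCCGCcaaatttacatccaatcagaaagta
Smc1b, chr15:85131974-85132030, minus strand: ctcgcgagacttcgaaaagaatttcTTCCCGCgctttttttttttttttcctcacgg
Mael, chr1:166238937-166238992, minus strand: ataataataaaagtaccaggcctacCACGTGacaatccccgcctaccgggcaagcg
Stk31, chr6:49395459-49395514, plus strand: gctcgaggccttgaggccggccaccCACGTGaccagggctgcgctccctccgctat
Fkbp6, chr5:135350051-135350170, minus strand: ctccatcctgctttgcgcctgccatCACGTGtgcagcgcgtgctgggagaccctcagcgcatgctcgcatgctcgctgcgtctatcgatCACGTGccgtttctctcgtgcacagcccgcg
Tex12, chr9:50561331-50561438, minus strand: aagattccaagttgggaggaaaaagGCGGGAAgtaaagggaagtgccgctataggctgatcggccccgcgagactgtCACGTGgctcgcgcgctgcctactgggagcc
Ddx4, chr13:112652311-112652471, minus strand: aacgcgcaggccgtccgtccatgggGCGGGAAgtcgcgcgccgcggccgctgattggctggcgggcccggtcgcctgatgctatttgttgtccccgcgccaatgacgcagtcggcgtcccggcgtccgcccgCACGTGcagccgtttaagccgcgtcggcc
The Tuba3a and Tuba3b stretches share the motif and most of the bases around it. Fkbp6 carries CACGTG at 2 places, and Tex12 and Ddx4 carry 1 copy of each motif. The distance from the last motif to the start site ranged from 23 bases in Ddx4 to 217 bases in Mael among these 8 genes. Raised germline genes without either motif included Syce1, Stra8 and Dazl.

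Genes of the 2-cell embryo and of linked multicopy families formed the next group. Of 23 genes of the 2-cell stage list 11 rose (47.8%, against 2.93% of all genes) and none fell, 10 of them among the 22 off chromosome 11. As for the germline list, the choice of members with earlier results known makes this a description only. The median log2FC was 1.34, or 0.38 with normexp and -0.39 over the 4 genes measured on all 6 arrays. In every fit without 1 array, 10 of the 11 kept their call. Pramel6, a PRAME family gene of preimplantation embryos that is counted with the Pramel genes, was dim in WT at 1.85, 2.10 and 2.39 and measured 9.91, 9.79 and 9.45 in KO, a rise of at least 65.9-fold (limma adjusted p 7.58e-07). Gm2022, a 2-cell stage gene that is a relative of the translation factor Eif1a, was dim at 2.74, 2.94 and 2.51 and measured 10.11, 9.75 and 10.04 in KO, a rise of at least 78.3-fold (adjusted p 7.58e-07). These were the 2 largest increases by log2FC among all genes. Tdpoz4, of a BTB domain family active in early embryos, was dim at 2.41, 2.39 and 2.95 and reached 6.62, 6.94 and 6.94, at least 8.92-fold higher (adjusted p 2.09e-05). Usp17lb, a deubiquitinase family gene, rose at least 10.4-fold (adjusted p 0.000181). Members of these families are so alike that a probe may read several copies. Zscan4a, which encodes a zinc finger protein of this stage, spread widely in WT (2.61, 5.74 and 3.75, above background on 1 array) and stood at 8.63, 9.37 and 8.35 in KO (log2FC 4.75, SE 0.65, adjusted p 0.00278).

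Of 22 Pramel genes 7 rose (31.8%, against 2.93% of all genes) and none fell. In every fit without 1 array, 6 of the 7 kept their call. Pramel39 read 6.19, 6.25 and 5.39 in WT and 8.23, 8.43 and 8.47 in KO (log2FC 2.43, limma adjusted p 0.00114). Pramel12 rose by a like amount (log2FC 2.30, adjusted p 0.0035). The rise of these genes was far below that of Pramel6. Their arrays did not overlap, as for every gene called off chromosome 11. The Rhox genes are X-linked homeobox genes of the reproductive tract and placenta, and 4 of 10 rose and none fell. Rhox13 had 7.14, 7.01 and 6.79 in WT and 10.00, 10.06 and 10.17 in KO (log2FC 3.10, adjusted p 6.4e-05). Rhox10 was dim in WT (4.86, 4.61 and 4.03) and had 8.32, 8.43 and 8.14 in KO, a rise of at least 13.9-fold (adjusted p 3.85e-05). Rhox6 rose by a similar order (log2FC 2.73, adjusted p 0.00166), and Rhox9 (log2FC 2.04, adjusted p 0.024) was no longer called without KO 2, KO 3, WT 1 or WT 3 (adjusted p up to 0.0832). Further X-linked genes among those that rose most were the ferritin heavy chain-like genes Fthl17f (4.57, 4.65 and 5.10 against 7.97, 7.66 and 7.48, adjusted p 0.000108) and Fthl17-ps1 (log2FC 3.10, adjusted p 0.000363) and Pnma5 (at least 10.6-fold, adjusted p 8.87e-05). In all, 40 of 911 genes of the X chromosome were called higher (4.39%), against 2.54% of the genes off chromosome 11.

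**Figure D2:**
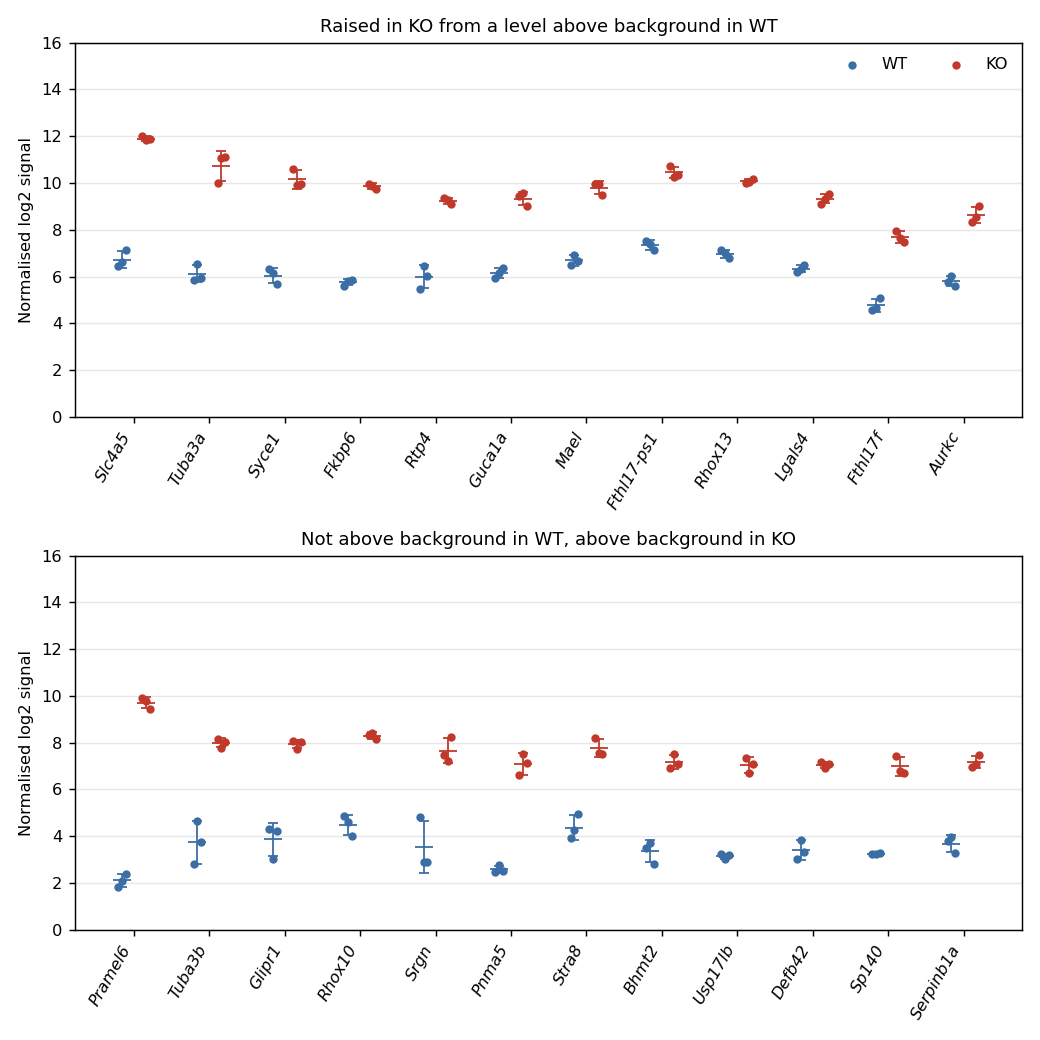
Normalised log2 signal (y axis) of the 12 named genes raised from a measured level (top) and the 12 raised from background (bottom), off chromosome 11 (x axis), on each WT and KO array, with bars for mean and SD of 3 arrays. No KO point overlaps a WT point of the same gene, as for all 507 genes called higher off chromosome 11. Slc4a5 reaches 11.83 to 12.01 in KO from 6.44 to 7.14 in WT.

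Several of the largest increases belonged to none of these families. Slc4a5, a sodium bicarbonate cotransporter gene, read 6.44, 6.61 and 7.14 in WT and 12.01, 11.83 and 11.88 in KO (log2FC 5.17, SE 0.27, limma adjusted p 1.05e-05), and its second probe changed by 5.32. Guca1a, which encodes a guanylate cyclase activator of photoreceptors, went from 5.93, 6.16 and 6.39 to 9.44, 9.56 and 9.02 (log2FC 3.18, adjusted p 6.69e-05). Lgals4, the gene for the gut lectin galectin-4, went from 6.19, 6.34 and 6.51 to 9.13, 9.33 and 9.53, and all 3 of its probes rose, by 2.98, 3.51 and 3.09. Every KO array lay far above every WT array for each of these genes. The 1 probe assigned to Aurkc, the germ cell Aurora kinase gene, rose by 2.83 on the log2 scale (adjusted p 0.00791). The gene is not on the germline list. This probe was placed on chromosome 4, and whether it reads Aurkc was not established. Bhmt and Bhmt2, neighbouring genes for the methyltransferases that remake methionine with betaine or S-methylmethionine, both appeared in KO. Bhmt was dim in WT at 2.81, 2.82 and 2.83 and read 6.75, 6.68 and 6.85 in KO, a rise of at least 8.47-fold (adjusted p 1.73e-05), while its second probe stayed dim in both groups. Bhmt2 was dim at 3.52, 3.72 and 2.82 and read 6.92, 7.50 and 7.08, at least 10.5-fold higher (adjusted p 0.000524). Of 29 methionine and folate cycle genes these 2 rose and Mthfd1l, of mitochondrial folate metabolism, fell (log2FC -1.07, adjusted p 0.0221), a call lost without any one of the WT or KO arrays (adjusted p up to 0.0927). The other named genes that appeared from background were Glipr1 (4.33, 3.03 and 4.23 against 8.06, 7.73 and 8.02), the proteoglycan gene Srgn (at least 10.9-fold), the beta-defensin gene Defb42 (at least 10.2-fold) and the serpin gene Serpinb1a (at least 9.49-fold). The second probe of Defb42 stayed dim in both groups (log2FC -0.25, adjusted p 0.725).

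Developmental regulators, the classical Polycomb targets, rose in part and less than the germline genes. Of 37 Hox genes 4 rose (10.8%, against 2.93% of all genes) and none fell, 3 of them among the 27 off chromosome 11. By unadjusted p (under 0.05) 16 were higher and none lower. The median log2FC was 0.33 (0.34 with 75th percentile scaling, 0.12 with normexp). Of the 37, 22 were well above background on at least 1 array. Hoxc9 read 5.19, 4.83 and 5.16 in WT, above background on 1 array, and 6.34, 6.93 and 6.75 in KO (log2FC 1.62, SE 0.23, limma adjusted p 0.00348). Hoxb13, which lies on chromosome 11, was dim in WT (2.67, 3.55 and 2.86) and read 5.26, 5.82 and 4.80 in KO, where 2 arrays were above background, at least 3.07-fold higher (adjusted p 0.0052). Hoxc4 and Hoxd10 passed narrowly (adjusted p 0.0303 and 0.0296) and were no longer called without WT 2, WT 3 or any one KO array (adjusted p up to 0.107 and 0.115).

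Among 128 other developmental transcription factors 15 rose (11.7%, against 2.93% of all genes) and none fell, 14 of them among the 116 off chromosome 11. The median of the list was 0.17, 0.02 with 75th percentile scaling and 0.09 with normexp. En2, the homeobox gene engrailed 2 of the midbrain and hindbrain, had the smallest adjusted p of the list, with 6.55, 6.71 and 6.33 in WT and 8.90, 8.90 and 8.98 in KO (log2FC 2.40, limma adjusted p 0.000163). Msx1, a homeobox gene of limb and craniofacial development, went from 5.59, 5.80 and 5.42 to 6.83, 7.19 and 7.40 (log2FC 1.54, adjusted p 0.00455). Most of the others started dim. Lhx2, a LIM homeobox gene of the forebrain and eye, was dim at 2.95, 2.84 and 2.80 in WT and read 5.48, 5.30 and 6.82 in KO, a rise of at least 4.56-fold (adjusted p 0.00165), with 2 KO arrays above background. Meis2, of a family of Hox cofactors, rose at least 4.71-fold (adjusted p 0.00182), and its paralogue Meis1 on chromosome 11 at least 7.27-fold (adjusted p 0.00258). Of the 15, 9 kept their call in every fit without 1 array.

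Endoderm regulators were among the genes that rose. Of 33 genes of primitive or visceral endoderm, 7 rose (21.2%) and 1 fell (3.03%), against 2.93% and 1.17% of all genes. Off chromosome 11, 6 of the 31 rose and 1 fell. The median log2FC was 0.37, 0.18 with 75th percentile scaling and -0.12 over the 15 measured on all 6 arrays. Col4a1, a basement membrane collagen gene, read 5.88, 6.12 and 5.52 in WT and 7.99, 8.72 and 8.66 in KO (log2FC 2.62, limma adjusted p 0.000654). Gata6, an endoderm master regulator, read 4.34, 4.54 and 5.47 in WT, above background on 1 array, and 6.55, 7.01 and 7.07 in KO (log2FC 2.09, adjusted p 0.00651). Rbp4, the retinol-binding protein gene, was dim at 3.15, 3.81 and 3.15 and read 6.93, 6.01 and 6.01, at least 6.23-fold higher (adjusted p 0.00415). Gata4 was dim in WT and above background on 2 KO arrays, at least 1.81-fold higher (adjusted p 0.00651). Apoe, an apolipoprotein gene chosen here after its value was seen, fell from 15.11, 15.00 and 15.04 to 13.18, 13.22 and 13.35 (log2FC -1.80, adjusted p 0.000808). For other cell types that a culture could hold, 4 of 24 trophoblast, 4 of 46 neuronal and glial and 2 of 22 fibroblast and mesenchymal genes rose, and 1, 1 and 0 fell. These shares are 16.7%, 8.70% and 9.09% for the rise, against 2.93% of all genes, and 1.17% of all genes fell. Off chromosome 11 4 of 22, 2 of 42 and 2 of 20 rose, against 2.54% of all genes there. The medians of these lists were 0.03 (-0.01 with 75th percentile scaling), -0.21 and -0.25 (-0.47 with 75th percentile scaling and -0.57 without dim probes), and between 11 and 37 of their genes were above background on at least 1 array. Esx1, an X-linked trophoblast homeobox gene, was called (adjusted p 0.00809) with both groups dim, so that no fold is given. The neural intermediate filament gene Nes was dim in WT (2.77, 3.97 and 2.95) and read 5.97, 5.96 and 6.07 in KO, a rise of at least 4.82-fold (adjusted p 0.00151). Kif1a, a neuronal kinesin gene, fell at least 4.66-fold (adjusted p 0.0377) and was no longer called without any one WT or KO array or I53A 3 (adjusted p up to 0.135). The part of any change in cell composition in these results was not tested.

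The pluripotency genes split. Of 30, 2 rose and 2 fell (6.67% each, against 2.93% and 1.17% of all genes). By unadjusted p (under 0.05) 9 were higher and 8 lower, and the median was -0.09. Tbx3, a T-box gene of naive pluripotency, rose from 8.23, 7.65 and 8.03 to 9.62, 10.16 and 9.65 (log2FC 1.84, limma adjusted p 0.00537). Dppa3, which encodes the maternal factor STELLA, rose less (log2FC 1.31, adjusted p 0.0286) and was no longer called without KO 1, KO 2, WT 1 or WT 3 (adjusted p up to 0.118). Sox2, a core pluripotency factor gene, read 8.96, 9.01 and 9.30 in WT and 8.24, 7.96 and 7.99 in KO (log2FC -1.03, adjusted p 0.0425). Its call was lost without any one WT or KO array or I53A 1 (adjusted p up to 0.151). Dppa4 behaved alike (log2FC -1.17, adjusted p 0.0302) and was no longer called without KO 2, KO 3 or any WT array (adjusted p up to 0.103). Nanog read 12.06 and 12.77 on 2 WT arrays, with the third left out as an outlier spot, and 13.03, 13.79 and 13.61 in KO (log2FC 1.06, adjusted p 0.141), which did not pass.

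A few genes of the Polycomb machinery itself were called. Of 30 PRC1 subunit genes 3 rose (10.0%) and none fell, and of 14 PRC2 subunit genes 2 rose (14.3%) and none fell. Of all genes, 2.93% rose. Off chromosome 11, 2 of 26 PRC1 and 0 of 11 PRC2 genes rose, against 2.54% of all genes there. Scml2, a germline-enriched PRC1 partner on the X chromosome, was dim in WT (4.10, 5.25 and 4.03) and read 7.13, 6.87 and 7.54 in KO, a rise of at least 6.59-fold (limma adjusted p 0.005). Its other probes changed by 1.69 and 0.26 and were not called. Bcor, a corepressor of variant PRC1, read 6.80, 7.05 and 6.89 against 7.69, 8.54 and 8.46 (log2FC 1.32, adjusted p 0.0205) and was no longer called without KO 2, KO 3 or any WT array (adjusted p up to 0.0841). The PRC2 genes that rose, Suz12 (log2FC 1.42, adjusted p 0.0242) and Ezh1 (log2FC 1.10, adjusted p 0.0314), both lie on chromosome 11. Suz12 was no longer called without KO 1, KO 2, WT 1 or WT 2 (adjusted p up to 0.0949), Ezh1 without KO 1, KO 2 or any WT array (adjusted p up to 0.117), and both with the chromosome 11 probes centred.

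Interferon-inducible genes, which cells express in answer to viral nucleic acid or interferon, also rose. Of 48 measured, 12 rose and none fell, 8 of them among the 40 off chromosome 11. These members, too, were chosen with earlier results known. The median log2FC of the list was 0.44, or 0.47, 0.63 and 0.49 in the single KO arrays against the WT mean, 0.36 with 75th percentile scaling and 0.20 with normexp. Ifi27, an interferon alpha-inducible gene, read 5.30, 5.05 and 5.17 in WT, above background on 2 arrays, and 9.68, 9.40 and 8.88 in KO (log2FC 4.14, SE 0.25, limma adjusted p 2.09e-05). Sp140, a nuclear body protein gene, was dim in WT at 3.23, 3.24 and 3.27 and read 7.45, 6.80 and 6.71 in KO, a rise of at least 9.87-fold (adjusted p 6.4e-05). Its other probes changed by 1.84 (adjusted p 0.0334) and 0.49 (adjusted p 0.564), the latter not called. Zbp1, which encodes a sensor of Z-form nucleic acid, went from 6.38, 6.81 and 6.78 to 9.16, 8.82 and 9.04 (log2FC 2.35, adjusted p 0.000451). All 3 of these showed a wide gap between the groups.

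The oligoadenylate synthetase genes, whose products activate RNase L, moved in the same direction. Oas1a was dim in WT (4.91, 5.20 and 4.91) and read 7.41, 7.09 and 7.09 in KO, a rise of at least 4.56-fold (limma adjusted p 0.000689). Oasl2 rose at least 3.44-fold (adjusted p 0.00713) and Oas2 at least 1.96-fold (adjusted p 0.00163), the latter with 1 KO array above background. Isg20, a gene for an antiviral exonuclease, read 6.49, 6.80 and 6.49 against 8.75, 9.09 and 8.74 (log2FC 2.27, adjusted p 0.00147). Rtp4, an interferon-induced chaperone gene that is on no list used here, read 5.48, 6.47 and 6.01 against 9.34, 9.27 and 9.10 (log2FC 3.25, adjusted p 0.000163). On chromosome 11, Ifi35 (6.81, 7.14 and 7.13 against 9.91, 9.92 and 9.80, adjusted p 7.85e-05), the GTPase genes Irgm1 (log2FC 2.65, adjusted p 0.000499) and Igtp (at least 5.56-fold, adjusted p 0.000275) and the transcription factor gene Irf1 (log2FC 1.75, adjusted p 0.0293) rose by far more than the chromosome's median of 0.22. Irf1 was no longer called without KO 1, KO 2 or any WT array (adjusted p up to 0.105) and with the chromosome centred. Every other one of the 12 kept its call in the fits without 1 array.

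Antigen presentation genes lay close to this pattern. Of 21, 3 rose (14.3%, against 2.93% of all genes) and none fell, with all 3 among the 20 off chromosome 11. By unadjusted p (under 0.05) 11 were higher and none lower. The median was 0.62 (0.82 with 75th percentile scaling, 0.37 with normexp). Cd74, the invariant chain gene, read 6.67, 6.83 and 6.55 in WT and 8.13, 8.02 and 7.96 in KO (log2FC 1.35, limma adjusted p 0.00428). The immunoproteasome genes Psmb8 (7.08, 7.99 and 6.83 against 8.97, 9.19 and 9.69, adjusted p 0.0135) and Psmb9 (7.26, 7.60 and 7.06 against 8.38, 8.85 and 8.79, adjusted p 0.0176) rose too. Psmb8 was no longer called without WT 1, WT 3 or KO 3 (adjusted p up to 0.0625) and Psmb9 without KO 2, KO 3, WT 1 or WT 3 (adjusted p up to 0.0782). H2-D1, a class I heavy chain gene, read 6.31, 6.15 and 6.32 against 8.52, 7.15 and 8.08 and did not pass (adjusted p 0.0572).

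**Figure D3:**
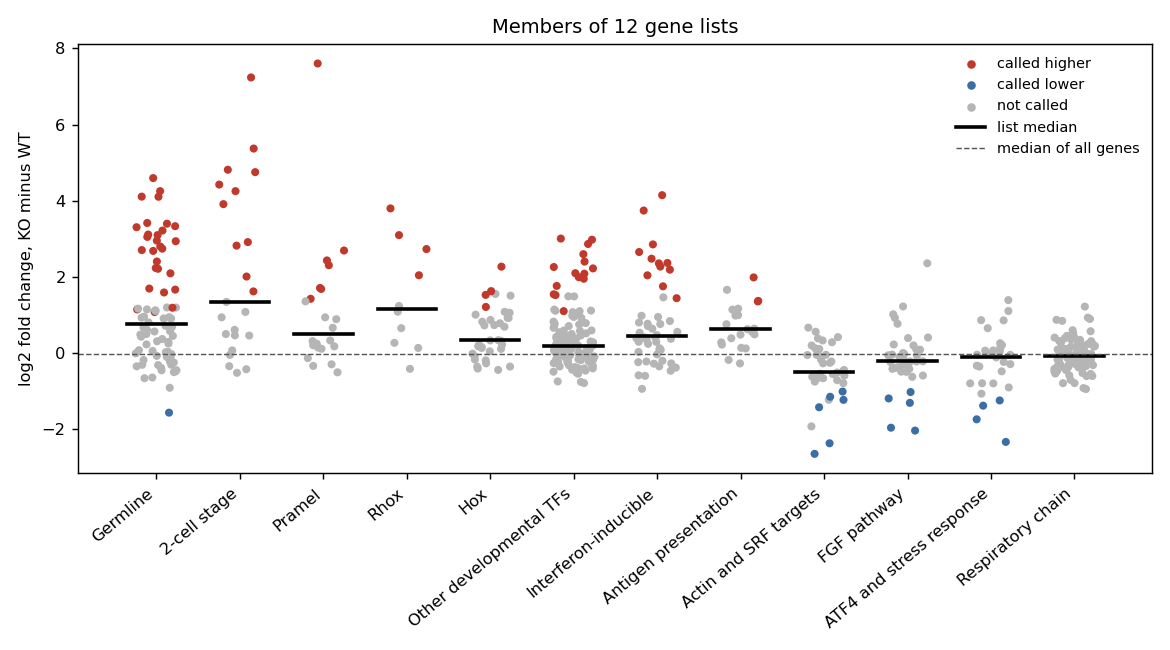
Log2 fold change in KO (y axis) of the genes of 12 lists (x axis), with called genes coloured, a black bar for the median of each list and a dashed line for the median of all genes, -0.02. The germline, 2-cell stage and interferon-inducible medians lie at 0.76, 1.34 and 0.44, and the actin and SRF target median lies at -0.50. The lists were chosen with earlier results of these data known, so the dashed line is no independent test of them.

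Among the decreases, Napsa was the largest of all genes. This gene for the aspartic protease napsin A read 10.09, 10.48 and 10.68 in WT and 5.86, 5.91 and 5.57 in KO (log2FC -4.64, SE 0.24, limma adjusted p 9.38e-06). Fxyd6, a regulator of the sodium pump, went from 11.23, 11.17 and 11.27 to 7.99, 8.72 and 9.01 (log2FC -2.65, adjusted p 0.000531). These genes were bright in WT and far lower on every KO array. Polr3gl, which encodes a subunit form of RNA polymerase III, went from 8.89, 9.19 and 9.06 to 6.14, 6.95 and 6.66 (log2FC -2.46, adjusted p 0.000499), and its dimmer probe fell as well. Foxp1, a forkhead gene with 5 probes, fell by its brightest probe (log2FC -2.07, adjusted p 0.00101) and by 2 further probes (-1.73 and -1.40), while the others were not called. Trh, the thyrotropin-releasing hormone gene, went from 11.92, 12.01 and 12.31 to 10.16, 10.14 and 9.77 (adjusted p 0.00123). Gng3, Spink1, Slc28a1 and Rnf165 fell by similar amounts, with log2FC from -2.31 to -2.02.

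Of the 14 genes measured on every WT array and on no KO array, the 8 with the largest "at least" folds included Tcl1b1. Tcl1b1, of a family active in oocytes and early embryos, read 6.72, 6.68 and 7.04 in WT and 3.36, 3.77 and 5.35 in KO. It was at least 5.85-fold lower (limma adjusted p 0.00761). Ahnak, a giant scaffold protein gene, fell at least 4.28-fold by its brightest probe (adjusted p 0.00365), while its 2 other probes were dim in both groups. Tmem47 fell at least 4.02-fold (adjusted p 0.0123). The calls of Smlr1, Dhx35, Spidr and Peak1 were less stable. Smlr1 (at least 5.47-fold) was no longer called without KO 1, KO 2, WT 2 or WT 3 (adjusted p up to 0.0767), and Dhx35 (at least 3.51-fold) without KO 1, KO 3, WT 1 or WT 2 (up to 0.0859). Spidr (at least 3.15-fold) dropped out without WT 2 or WT 3 (up to 0.0548), and Peak1 (at least 3.09-fold) without KO 1, KO 3 or any WT array (up to 0.0973).

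**Figure D4:**
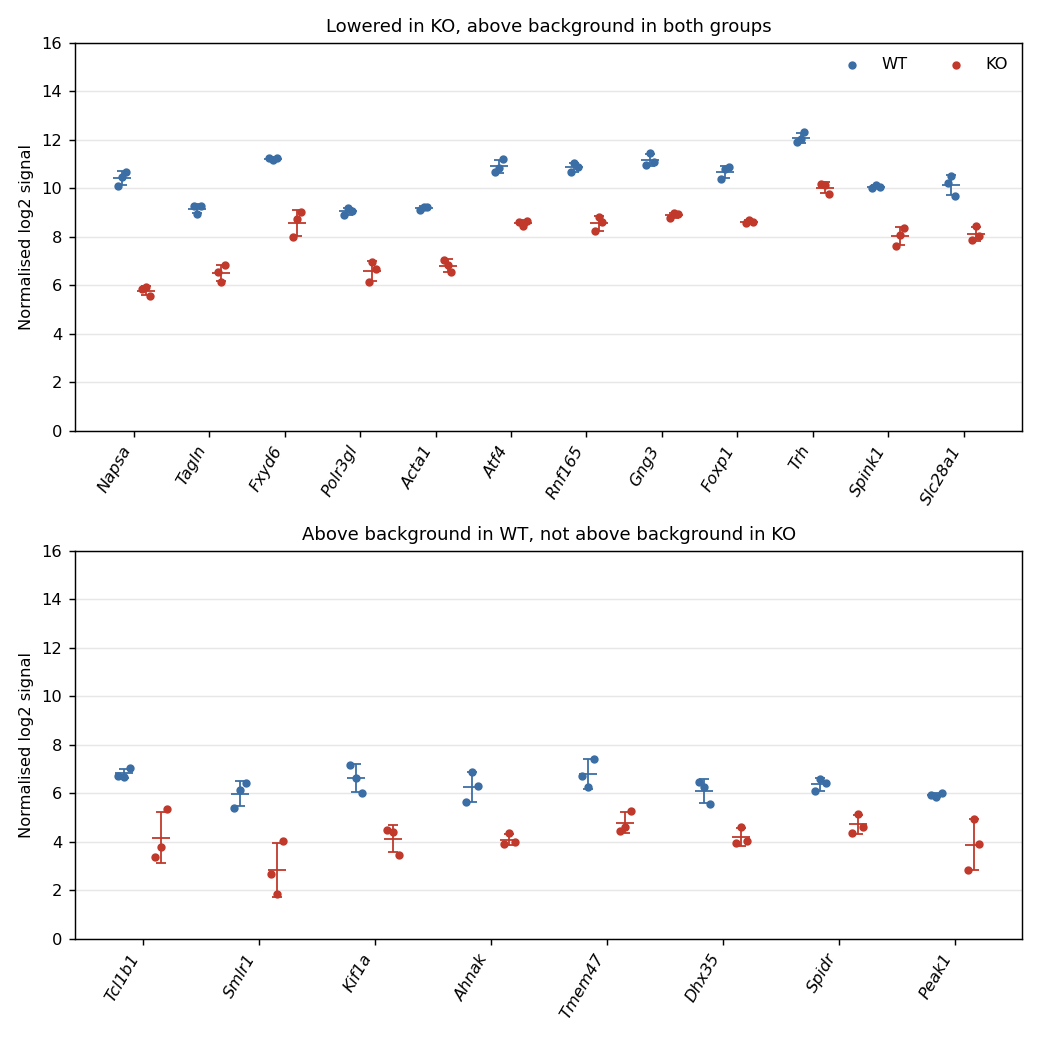
Normalised log2 signal (y axis) of the 12 named genes lowered in KO and measured in both groups (top) and the 8 measured in WT and dim in KO (bottom), off chromosome 11 (x axis), on each WT and KO array, with bars for mean and SD of 3 arrays. Napsa lies at 10.09 to 10.68 in WT and 5.57 to 5.91 in KO, and the 8 genes below show wider spreads.

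Actin cytoskeleton genes and targets of serum response factor (SRF), which drives them, fell in part. Of 38 genes 6 fell (15.8%, against 1.17% of all genes) and none rose, all 6 among the 36 off chromosome 11. By unadjusted p (under 0.05) 15 were lower and 2 higher. The median log2FC was -0.50, with -0.33, -0.46 and -0.50 for the single KO arrays, -0.29 with 75th percentile scaling and -0.24 with normexp. Tagln, the gene for the actin-binding protein transgelin, read 9.25, 8.95 and 9.26 in WT and 6.54, 6.15 and 6.82 in KO (log2FC -2.65, SE 0.31, limma adjusted p 0.00122). Acta1, the skeletal muscle actin gene, read 9.11, 9.21 and 9.23 in WT and 7.05, 6.85 and 6.54 in KO (log2FC -2.37, adjusted p 0.000299). Both kept their calls in every fit without 1 array. The other 4 fell by less and did not. Cald1, the caldesmon gene (log2FC -1.23, adjusted p 0.0115), was no longer called without WT 3 (0.0575), and its other probes were not called. Acta2, the smooth muscle actin gene (-1.43, adjusted p 0.0323), dropped out without WT 1, WT 2, KO 1, KO 2 or I53A 2 (up to 0.124), Tpm1, a tropomyosin gene (-1.15, adjusted p 0.0353), without KO 1, KO 2 or any WT array (up to 0.138), and Cnn2, a calponin gene (-1.01, adjusted p 0.0303), without any one WT or KO array (up to 0.114). Srf itself read 5.43, 5.49 and 5.60 in WT and 7.46, 5.04 and 4.99 in KO and was not called (adjusted p 0.84), with 1 KO array above all others.

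A few FGF pathway genes fell, 3 inhibitors and 2 ligands. Of 38 genes 5 fell (13.2%, against 1.17% of all genes) and none rose, 4 of them among the 34 off chromosome 11. The median was -0.22 (-0.24 with 75th percentile scaling, -0.04 with normexp). Spred1, an inhibitor of Ras and ERK signalling, read 8.06, 7.92 and 8.11 in WT and 5.75, 6.32 and 6.14 in KO (log2FC -1.96, limma adjusted p 0.000902), while its 2 other probes were not called. Spry1, the Sprouty 1 inhibitor, read 8.77, 8.61 and 8.72 in WT and 7.29, 7.44 and 7.44 in KO (log2FC -1.31, adjusted p 0.00415). The arrays within each group were close together for both. Spry2 fell by less (log2FC -1.03, adjusted p 0.0175) and was no longer called without KO 2, KO 3 or any WT array (adjusted p up to 0.0741). Of the ligands, Fgf18 on chromosome 11 read 12.08, 12.24 and 12.33 against 9.94, 10.52 and 10.06 by its brighter probe (log2FC -2.04, adjusted p 0.00109) and fell by 2.13 by the other. Fgf17 (log2FC -1.20, adjusted p 0.0138) was no longer called without WT 1 or WT 2 (adjusted p up to 0.0657). Other inhibitors and ligands were not called, among them Spred2 (log2FC 1.22), Spry4 (-0.22), Fgf4 (0.77) and Fgf7 (1.01). Etv4, a transcription factor gene induced by FGF signalling, read 7.57, 7.72 and 6.64 in WT and 11.76, 8.38 and 8.85 in KO, with 1 KO array far above the others, and did not pass (log2FC 2.35, SE 0.72, adjusted p 0.111).

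The ATF4 stress response genes fell in part. Of 29 genes 4 fell (13.8%, against 1.17% of all genes) and none rose. By unadjusted p (under 0.05) 9 were lower and 3 higher. The median was -0.12, and -0.07 with 75th percentile scaling, where the median of all genes was also -0.07. Atf4, the transcription factor gene of the integrated stress response, read 10.68, 10.85 and 11.20 in WT and 8.60, 8.46 and 8.65 in KO (log2FC -2.34, SE 0.22, limma adjusted p 0.00035), and its second probe fell by 1.77 on the log2 scale. Ddit3, its target that encodes CHOP, read 9.30, 9.43 and 9.29 in WT and 7.82, 8.15 and 7.90 in KO (log2FC -1.39, adjusted p 0.00382). Chac1, which encodes a glutathione-degrading enzyme (log2FC -1.74, adjusted p 0.0281), was no longer called without KO 1, KO 3 or any WT array (adjusted p up to 0.0993). Slc7a3, a cationic amino acid transporter gene (log2FC -1.25, adjusted p 0.0295), dropped out without KO 1, KO 3, WT 1 or WT 3 (adjusted p up to 0.119).

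**Figure D5:**
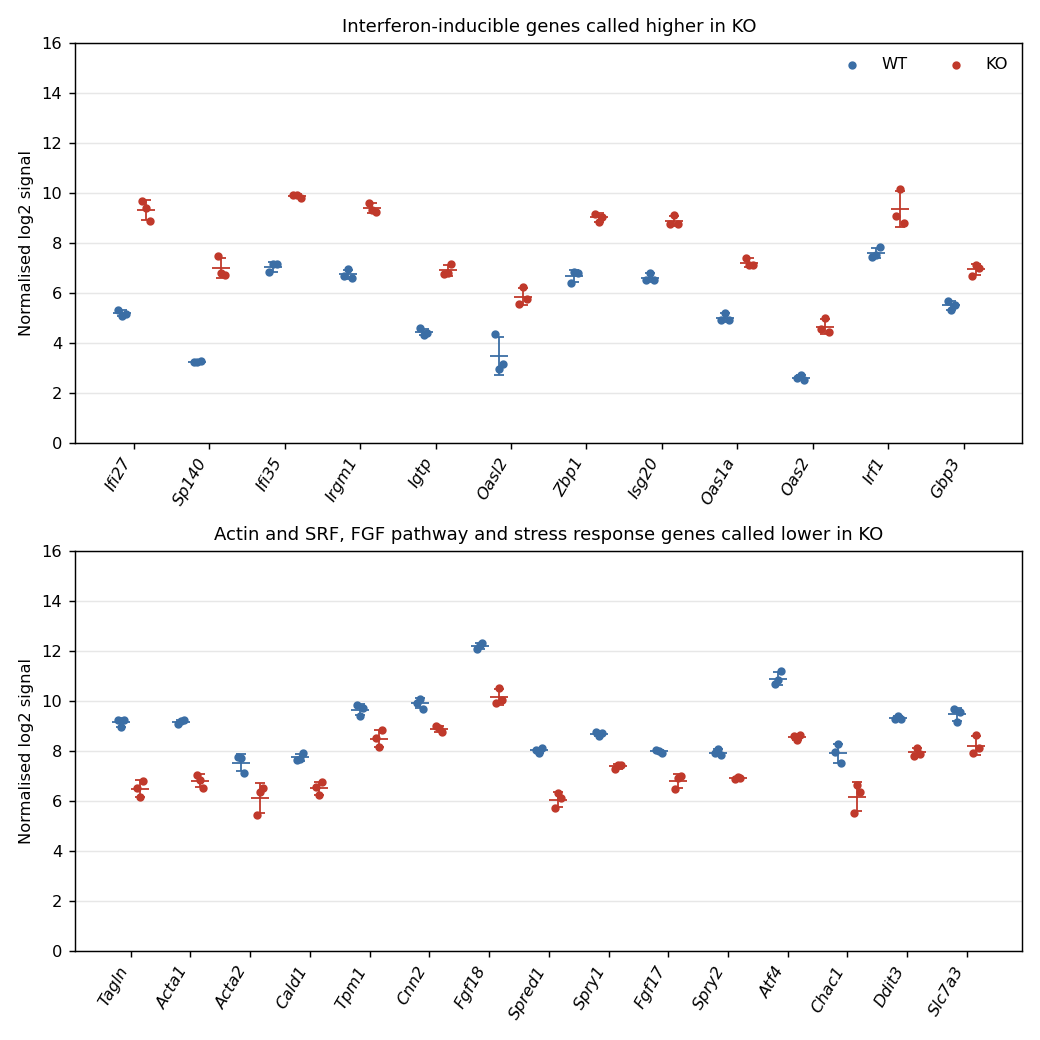
Normalised log2 signal (y axis) of the 12 interferon-inducible genes called higher (top) and of the 15 actin and SRF, FGF pathway and ATF4 stress response genes called lower (bottom) in KO (x axis), on each WT and KO array, with bars for mean and SD of 3 arrays. Groups are separate for every gene shown, as for all 507 genes called higher and all 244 called lower off chromosome 11, so this adds nothing to the call. Ifi27 lies at 5.05 to 5.30 in WT and 8.88 to 9.68 in KO, and Atf4 at 10.68 to 11.20 and 8.46 to 8.65.

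Signalling and adhesion lists otherwise held few calls. Their counts stand beside 2.93% of all genes that rose and 1.17% that fell. Gli1, the Hedgehog target and effector gene, read 7.93, 8.02 and 8.07 in WT and 6.11, 5.85 and 6.13 in KO (log2FC -1.98, limma adjusted p 0.001), and Dll3, which encodes a divergent Notch ligand, read 6.12, 6.74 and 5.88 against 8.40, 8.30 and 8.22 (log2FC 2.06, adjusted p 0.0032). They were the 2 called of 32 Hedgehog and Notch genes. The second Dll3 probe was not called (log2FC 0.95, adjusted p 0.451). Of 52 Wnt pathway genes 3 rose and none fell, and Wnt6 alone of these kept its call in every fit without 1 array, at least 2.9-fold higher (adjusted p 0.00436). Of 51 TGF-beta, BMP and Nodal pathway genes, 1 rose and 1 fell, the latter Id2, an inhibitor of basic helix-loop-helix factors (8.74, 8.41 and 8.78 against 7.21, 7.38 and 6.97, adjusted p 0.00438). Of 41 claudin and connexin genes, 1 rose and 2 fell. Gjb1, the connexin 32 gene, fell from 7.84, 8.18 and 7.90 to 5.98, 4.98 and 5.39 (log2FC -2.52, adjusted p 0.00151, 2 KO arrays above background). Cldn4, the claudin 4 gene, fell by both of its probes (-1.75 and -1.46). Cldn5 rose from 5.64, 5.40 and 5.13 to 6.69, 6.95 and 7.90 (log2FC 1.79, adjusted p 0.0154). Its call was lost without WT 2 or WT 3 (adjusted p up to 0.0707). None of 35 laminin and integrin genes and none of 56 cadherin and protocadherin genes was called by limma, with 3 and 1 higher and 4 and 3 lower by unadjusted p (under 0.05). Among 351 solute carrier genes 15 rose and 7 fell (4.27% and 1.99%, against 2.93% and 1.17% of all genes), and off chromosome 11 12 of 319 rose and 7 fell, against 2.54% and 1.22%. Besides Slc4a5 the mitochondrial carnitine carrier gene Slc25a20 rose strongly (8.61, 8.68 and 8.77 against 11.07, 10.72 and 11.63, adjusted p 0.000639).

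Among 51 imprinted genes, whose expression depends on parental origin, 8 rose (15.7%) and 2 fell (3.92%), against 2.93% and 1.17% of all genes. Off chromosome 11, 6 of the 46 rose and 2 fell. The median was -0.07, or 0.03 with 75th percentile scaling. H19, a maternally expressed non-coding RNA, had 6 probes, and all 6 were called higher, by 1.91 to 3.69. Its brightest probe read 6.16, 5.50 and 5.78 in WT, above background on 2 arrays, and 8.04, 7.69 and 7.44 in KO (limma adjusted p 0.00536). Dlk1, a paternally expressed Notch-related gene, read 6.13, 6.34 and 6.51 against 8.01, 7.66 and 7.64 (log2FC 1.44, adjusted p 0.00848). Zrsr1 (log2FC 2.05, adjusted p 0.00555) and Ddc (1.73, adjusted p 0.0103) lie on chromosome 11. Cdkn1c, the p57 cell cycle inhibitor gene (log2FC 1.29, adjusted p 0.0217), was no longer called without KO 1, KO 2, WT 2 or WT 3 (adjusted p up to 0.0898). Impact fell from 9.72, 9.47 and 9.85 to 8.39, 8.17 and 8.32 (log2FC -1.39, adjusted p 0.00564), and was picked with its value known.

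Genes of basic cell functions gave few or no calls, where 2.93% of all genes rose and 1.17% fell. None of 86 respiratory chain genes was called by limma (5 higher and 10 lower by unadjusted p (under 0.05), median -0.07, or 0.15 with 75th percentile scaling), none of 23 cholesterol synthesis genes (3 and 3), none of 29 mitotic and replication genes (0 and 4), none of 22 DNA methylation and demethylation genes (3 and 2) and none of 18 housekeeping genes (1 and 3). Of 24 glycolysis genes 2 fell, or 1 of the 21 off chromosome 11. These were Eno3 on chromosome 11 (log2FC -1.24, adjusted p 0.0158) and Pdk1 (-1.10, adjusted p 0.033). Eno3 was no longer called without any WT array or KO 3 (adjusted p up to 0.0629) and Pdk1 without any one WT or KO array (up to 0.123). Of 59 ribosomal protein genes the one that rose was Rpl10l, a retrogene expressed in testis that is also on the germline list (10.52, 10.60 and 10.53 against 11.42, 11.70 and 11.76, adjusted p 0.0177). Both of its probes were called, though the call was lost without KO 2, KO 3 or any WT array (adjusted p up to 0.0773). Of 1001 olfactory receptor genes 4 rose and 3 fell (0.40% and 0.30%), and off chromosome 11 1 of 928 rose and 3 fell.

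On chromosome 11 the leading genes rose by far more than the chromosome as a whole. Calcoco2, which encodes the autophagy receptor NDP52, was bright in WT (9.95, 10.07 and 10.29) and reached 14.58, 13.92 and 14.79 in KO (log2FC 4.33, SE 0.27, limma adjusted p 2.81e-05), with the same 4.33 by its second probe. Meioc, a gene of meiotic prophase, read 5.14, 5.09 and 5.69 in WT, above background on 1 array, and 8.94, 8.52 and 8.70 in KO (log2FC 3.41, adjusted p 6.59e-05). Its second probe, above background on every WT and KO array, rose by less (log2FC 1.14, adjusted p 0.0382). Tmem92, counted among 2-cell stage genes (3.03, 2.50 and 3.65 against 7.33, 7.52 and 7.59, adjusted p 6.9e-05), Alox12e, a lipoxygenase gene (at least 8.48-fold, adjusted p 0.00222), and Olfr392, an olfactory receptor gene (at least 5.83-fold, adjusted p 6.4e-05), rose from dim WT signals. Tex19.1, a placental and germline gene, was even across arrays, with 7.91, 7.93 and 7.89 in WT and 10.87, 10.86 and 10.80 in KO (adjusted p 2.98e-05). Of the genes that fell, Fgf18 kept its call in every fit without 1 array, while Gfpt2 (adjusted p up to 0.0819), Asb3 (up to 0.116) and Lyrm7 (up to 0.132) did not. Gfpt2 dropped out without KO 1, KO 3 or any WT array, Asb3 without any KO array, WT 1, WT 2 or I53A 2, and Lyrm7 without any WT array, KO 1, KO 2 or I53A 2.

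Genes that rose often had a raised neighbour. Off chromosome 11, 159 of the 507 (31.4%) had another raised gene within 200 kb of the start site, against 15.1% of all 19971 genes tested, and 26 of the 244 that fell (10.7%) had another that fell, against 8.53%. Duplicated genes lie side by side and can share probes' targets, and the share of the difference that comes from such clusters was not tested. Runs of 3 or more adjacent genes included the Gm21319 and Gm2022 cluster on chromosome 12, a Tdpoz cluster on chromosome 3, with Spopfm2 (at least 5.60-fold, limma adjusted p 0.00026) and Tdpoz7 (at least 2.75-fold, adjusted p 0.000524), and kallikrein genes on chromosome 7. There, Klk1b5 read 5.80, 5.88 and 5.99 in WT and 8.48, 8.21 and 9.20 in KO (adjusted p 0.00128), and Klk1 rose next to it (log2FC 2.41, adjusted p 0.00139). The adjacent Klk1b4 (adjusted p 0.0356) was no longer called without WT 1, WT 3, any KO array, I53A 2 or I53A 3 (adjusted p up to 0.113). A run of unrelated genes lay on chromosome 9, where Slc25a20 stood between Arih2, an ubiquitin ligase gene (log2FC 1.17, adjusted p 0.0111), and Prkar2a, a protein kinase A regulatory subunit gene (at least 2.74-fold, adjusted p 0.0253). Arih2 was no longer called without WT 1 (0.0608), and Prkar2a without WT 1, WT 2 or any KO array (up to 0.0818).

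Where a gene had several probes, they served as further readings of its RNA. Among genes with 2 or more tested probes and a called probe, all probes had the same sign in 198 of 275 that rose and 95 of 131 that fell, and 2 or more were called the same way in 53 and 20. No gene had probes called in opposite directions. Further probes of Kif1a, Peak1, Lyrm7, Dppa4, Psmb9, Rnf165, Ddc and Ezh1 were not called. For 480 genes called higher and 174 called lower a single probe was tested, and their changes rest on it.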

How the data were processed

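RNA of 9 samples, 3 each of WT, KO and I53A, was hybridised singly to Agilent mouse 8x60K arrays in 1 colour, and the deposited scanner files hold the processed signal intensity that Agilent Feature Extraction 11.5.1.1 computed, per the file headers. The authors quantile normalised these values, and their deposited series table holds log2 values per array, used here as an alternative, next to group means, fold changes, p-values and call flags, which were not used. From the scanner files, outlier-flagged spots were dropped, repeat spots averaged, log2 taken and the 55681 non-control probes quantile normalised over 9 arrays. Tests covered the 30170 probes that the series table lists, by limma 3.58.1 in R 4.3.3 on 3 group means (residual degrees of freedom, 6), and p-values were adjusted by Benjamini-Hochberg. The script was tested on simulated data. The number of arrays limits the precision.

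Groups were read from the labels. A gene's brightest probe stands for it. Named genes were the 12 most raised and 12 most lowered measured genes, and 10 on chromosome 11. To these came the 12 with the largest "at least" folds among genes appearing from background and the 8 among genes lost to it. Up to 4 called members of each of 48 lists were added. Gm-numbered and Rik names were left out of the groups outside the lists. Further list members and the neighbour genes were chosen after their values were seen. The members and lists were chosen with earlier results of these data known.

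Same-numbered WT and KO arrays did not deviate together (correlations -0.078, -0.021 and -0.048), while those on the same slide and row correlated at 0.141, 0.104 and 0.155. Alternatives were 75th percentile scaling, normexp background correction with an offset of 50 on median signals, dim probes left out, WT and KO arrays alone, slide or replicate number as a block, slide 1 alone, the authors' values, centred chromosome 11 probes, limma's treat against 1.2-fold and leaving out each array. Slide and row as a block was added after seeing the data. The values of some called genes are not reported here.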

Additional observations from a re-analysis of the deposited data

How the results depend on the processing

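Counts of called probes changed more with the processing than directions did. With normexp correction, 233 probes were called higher and 93 lower (824 and 335 as reported), 172 and 90 of them off chromosome 11 (651 and 322), with 59 list genes higher and 20 lower (158 and 43). On slide 1 alone, which has fewer arrays, the counts were 290 and 42, 241 and 40, and 74 and 9. Limma's treat gave 517 and 171, 418 and 167, and 27 list genes lower. Without 1 array each, the ranges were 456 to 792 higher and 151 to 313 lower, 366 to 629 and 146 to 302 off chromosome 11, and 111 to 152 and 25 to 42 for list genes. With the replicate number as a block, which pairs nothing here, 584 probes were higher and 213 lower, 473 and 207 off chromosome 11. With slide and row as a block, whose WT and KO arrays did deviate together, 817 were higher and 342 lower, and 17 of the 238 genes followed singly lost their call, among them Hoxc4, Tpm1, Peak1, Prkar2a, Klk1b4 and Lyrm7.

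The median log2 difference of chromosome 11 probes was 0.199, and 0.173 with 75th percentile scaling, 0.0684 with normexp, 0.315 without dim probes, 0.1826 to 0.2003 without 1 array and -0.0455 with that chromosome centred, by construction. The 75th percentile scaling moved the median of all probes to -0.086. The share of genes with 2 or more probes and a call whose probes all had 1 sign was 72.2%, and 82.6% with normexp, 88.1% without dim probes and 67.3% to 78.3% without 1 array. The share of raised genes with a raised neighbour was 31.4%, and 15.4% with normexp, 37.2% without dim probes, 26.0% with the replicate block, 22.2% on slide 1, 25.3% with treat and 22.3% to 31.3% without 1 array. Promoter letters stayed between 52.6% and 63.6%. The log2FC of Ring1, never called, ranged from -0.61 to 0.49 without 1 array and turned positive without WT 3 (0.25) and KO 3 (0.49). Of 238 called genes followed singly, 73 kept their call under all 20 alternatives, 90 lost it in at least 1 fit without an array and none reversed. Normexp removed 138 calls and slide 1 alone 134. The causes were not tested. Signal near background limits what can be said of genes dim in a group.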
